A study of Mus musculus with 10 samples.

Results

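Immediate early genes were examined in mouse intestinal organoids given a carcinogen, tamoxifen meant to delete a phosphatase subunit, or both. The genes were *Fos*, *Fosb*, *Jun*, *Junb*, *Egr1*, *Egr2*, *Egr3*, *Atf3*, *Ier2* and *Nr4a1*, chosen by gene symbol, which makes 10 of the 47069 genes in the deposited count table. All 10 passed the filter on low counts, *Egr3* only through the DMBA+TAM libraries, so that it is left out of the counts of members given here. RNA-seq had been performed on 10 libraries of C57BL/6 intestinal organoids, kept in culture for 50 days in Matrigel with Noggin, EGF and R-spondin-1 (NER medium). The study asked whether 7,12-dimethylbenz[a]anthracene (DMBA, a carcinogen) and deletion of *Ppp2r1a*, the scaffold subunit of the phosphatase PP2A, transform intestinal stem cells together. The mice behind these organoids carried *Lgr5-EGFP-CreERT2* and *Ppp2r1a* flox/flox, so that Cre is made in Lgr5+ crypt stem cells only and acts once tamoxifen (TAM) is given.

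There were 5 groups of 2 libraries, and by the study's methods all of them, controls included, carried the floxed alleles and the Cre. The control received saline. DMBA organoids received DMBA and are labelled long. Tamoxifen was given in a set labelled short (TAM short) and in a set labelled long (TAM long). Both labels also call this tamoxifen dosage-sensitive, a term that they do not explain. The last group received both agents (DMBA+TAM) and is labelled neither short nor long. What short and long stand for is not explained, and nothing states that the 2 libraries of a group came from separate cultures or animals, so that p-values measure only the spread between these samples. The library names are NS for control, NL for DMBA, DSS_S for TAM short, DSS_L for TAM long and Lgr5 for DMBA+TAM, each with the replicate number. The labels do not explain these names. The last letter before that number, S in control and TAM short and L in DMBA and TAM long, is called the S or L suffix here, and DMBA+TAM has no such suffix. The L goes with the label long, and the S with the label short in TAM short but with no such label in control.

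Immediate early genes are transcribed within minutes of a stimulus from factors already present in the cell, such as serum response factor with its ERK-phosphorylated partners and CREB, and their transcripts are short-lived. Most encode transcription factors: Fos and Jun proteins pair into AP-1, Egr proteins bind GC-rich sites through zinc fingers, and Nr4a1 is an orphan nuclear receptor. In the gut they are known to respond to growth factors, wounding and stress, and they are also a well-known response to the handling and dissociation of tissue.

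PP2A is known to dephosphorylate members of the ERK cascade. *Ppp2r1a* served as the check of the targeted gene. It had 123 and 129 normalized CPM (CPM, counts scaled to a common library total by TMM) in control, 167 and 152 in DMBA, 130 and 147 in TAM short, 169 and 157 in TAM long, and 129 and 133 in DMBA+TAM. The mean of no tamoxifen group was below that of control, and the test of DMBA+TAM against control gave 0.06 on the log2 scale (standard error 0.11, adjusted p = 0.687). *Ppp2r1a* was higher than control in TAM long (0.37, adjusted p = 0.0213) and in DMBA (0.34, adjusted p = 0.0291). The counts sum over whole genes, so a loss of the floxed exons alone could not be read from them.

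The DMBA+TAM libraries held 1592366 and 1915270 counts and the other 8 between 8828247 and 10923673, so that 3 counts correspond there to 1.58 and 1.32 normalized CPM, against 0.258 to 0.378 in the deeper libraries. The cell type markers also set DMBA+TAM apart from its label of an epithelial organoid. The 10 epithelial markers summed to 22.9 and 33.2 normalized CPM in DMBA+TAM against 13537 to 23049 in the other groups, while 10 fibroblast markers summed to 32046 and 32985 against 702 to 2265. The 7 endothelial markers summed to 686 and 689 against 68.6 to 130, and the 8 immune markers to 3799 and 3868 against 126 to 346, with *Cd3e* at 0 in both DMBA+TAM libraries. Of 10 markers of the small intestine, *Gata4*, *Lct*, *Sis* and *Apoa4* were among those at 0 there, at the lower depth of these libraries. *Apoa4* was also at 0 in both DMBA and both TAM long libraries, and *Lct* in both TAM long libraries. The libraries with the S and the L suffix differed as well: the small intestine markers summed to between 36409 and 50005 in control and TAM short and to between 527 and 2152 in DMBA and TAM long, and the 6 colon markers to between 227 and 423 against 2591 to 12171. Smooth muscle markers, 7 in number, summed to between 1313 and 2479 in control and TAM short and to between 7685 and 13741 in DMBA and TAM long. The part of these differences in the results given here was not tested, and in bulk samples fewer cells of a type cannot be told apart from less RNA per cell.

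Promoter sequence was at hand for 7 of the 10 members, from RefSeq on GRCm38.p6, with 5 start sites for *Egr2* and a single start site each for *Fos*, *Fosb*, *Jun*, *Junb*, *Atf3* and *Nr4a1*. Motifs of the known upstream factors were searched on both strands in windows of 300 bases, from 250 before to 50 after the start site, so that *Egr2* had more sequence searched than the others. Sites farther upstream, or of a looser form than the one searched, were not covered, so a member without a motif here may still hold one. Within these windows the CArG box, the site of serum response factor, was found in *Egr2* only among these 7 members. It was found in 1.63% of all 32851 promoters of the same length. The *Egr2* windows are shown because *Egr2* separated DMBA+TAM from the other groups most, with the CArG box in capitals; both boxes start 72 bases before a start site.
*Egr2*, chr10:67537787-67537816, plus strand: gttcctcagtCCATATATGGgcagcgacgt
*Egr2*, chr10:67537484-67537513, plus strand: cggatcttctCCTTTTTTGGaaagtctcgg

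The Egr site, searched as GCGGGGGCG or GCGTGGGCG, was found in *Fosb* and *Nr4a1* and in 3.47% of all promoters. These windows are shown because *Nr4a1* rose and *Fosb* fell against control in each of the 4 treated groups; capitals mark the Egr site, 60 bases before the start site in *Nr4a1* and 50 in *Fosb*.
*Nr4a1*, chr15:101266776-101266805, plus strand: gcgtcagtggCGCCCCCGCccctctccatg
*Fosb*, chr7:19310076-19310105, minus strand: tgacgcaagcGCGGGGGCGggtcccggagg

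TGACG, the core that CREB and its relatives bind, was found in 6 of the 7 members (*Fos*, *Fosb*, *Junb*, *Egr2*, *Atf3* and *Nr4a1*) and in 20.8% of all promoters. The full palindrome TGACGTCA, which holds TGACG, was found in 0 of the 7 and in 1.79% of all promoters, and the AP-1 site TGACTCA in 0 of the 7 and 5.2%. The *Fos* window is shown since *Fos* is the founding member of the class, with TGACG in capitals, 66 bases before the start site.
*Fos*, chr12:85473812-85473841, plus strand: agttccgcccagTGACGtaggaagtccatc

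The members did not move together. In DMBA+TAM against control, *Egr1*, *Egr2*, *Nr4a1* and *Jun* were higher, and *Fos*, *Fosb*, *Atf3* and *Ier2* were lower, while *Junb* did not pass the test. Thus 4 of the 9 members without *Egr3* were higher and 4 lower at an adjusted p under 0.05 (edgeR's quasi-likelihood test over 16179 genes). Of all genes tested, 29% were higher and 35.3% were lower in the same comparison, so that most of the tested genes passed. The median log2 fold change was 0.18 over these 9 members and -0.17 over all genes. With scaling by library size only, the median of all genes moved up by 0.48 and the higher share of calls over all genes from 45.1% to 62.4%. All 9 kept their direction under that scaling in this comparison, but *Ier2* lost its call (-0.02, adjusted p = 0.932) and *Junb* gained it (0.68, adjusted p = 0.00682).

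**Figure D1:**
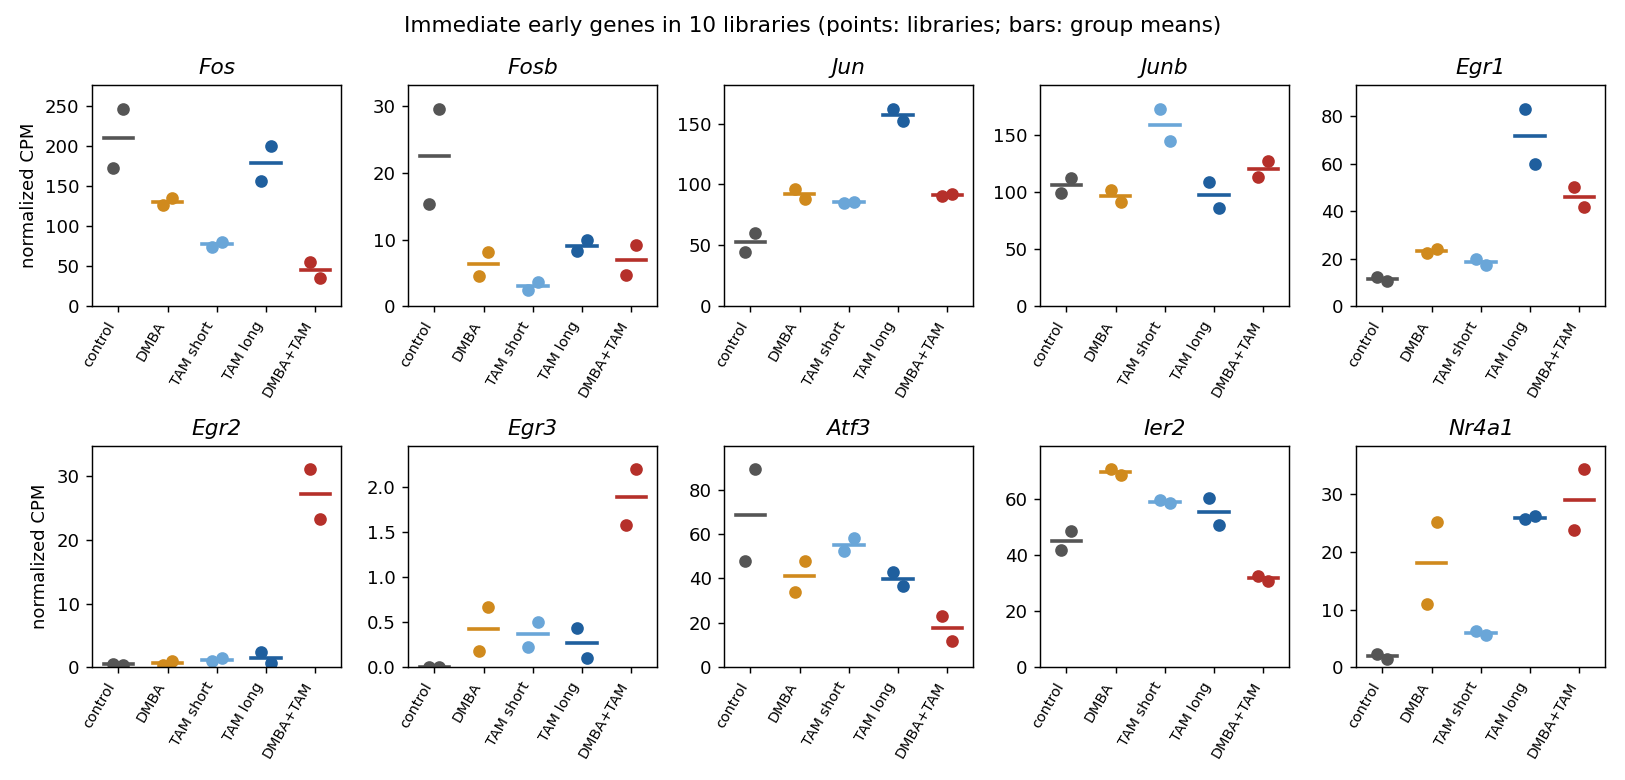
Normalized CPM of each immediate early gene (y axis, linear, from 0) in the 2 libraries of each group (points), with the group mean as a bar. *Egr2* stands at 31.1 and 23.3 in DMBA+TAM and at or below 2.41 in the other 8 libraries, whereas *Fos* is highest in control and TAM long and lowest in DMBA+TAM.

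*Fos* (chromosome 12 of GRCm38, plus strand, 85473890 to 85477273) encodes the partner that Jun proteins need for strong binding of AP-1 sites. It had 173 and 247 normalized CPM in control, 126 and 135 in DMBA, 74.2 and 81.0 in TAM short, 157 and 200 in TAM long, and 55.3 and 35.6 in DMBA+TAM. Both DMBA+TAM libraries lay below all 8 others, and only the ranges of control and TAM long overlapped. DMBA+TAM set against control gave -2.22 on the log2 scale (standard error 0.24, adjusted p = 2.1e-05). *Fos* also fell in TAM short (-1.44, adjusted p = 0.00231) and in DMBA (-0.69, adjusted p = 0.0239), the latter not without control replicate 2 (-0.42, adjusted p = 0.211), without DMBA replicate 1 (-0.66, adjusted p = 0.0689) or with library size only (-0.38, adjusted p = 0.157). The call in DMBA was also lost with thinned counts (-0.44, adjusted p = 0.172) and with limma (-0.36, adjusted p = 0.225). In TAM long the value was -0.23 (adjusted p = 0.391), and 0.09 with library size only.

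*Fosb* (chromosome 7, minus strand, 19302721 to 19310045), a close relative of *Fos* that also pairs with Jun proteins, was highest in control. It had 15.3 and 29.6 normalized CPM in control, 4.55 and 8.18 in DMBA, 2.48 and 3.65 in TAM short, 8.26 and 9.91 in TAM long, and 4.74 and 9.23 in DMBA+TAM. Both control libraries were above all 8 treated libraries, but the controls differed widely from each other. The log2 fold change against control was -2.87 in TAM short (adjusted p = 0.00205), -1.83 in DMBA (adjusted p = 0.00359), -1.65 in DMBA+TAM (adjusted p = 0.00998) and -1.30 in TAM long (adjusted p = 0.017). Without control replicate 2, the calls were lost in TAM long (-0.77, adjusted p = 0.207), DMBA+TAM (-1.14, adjusted p = 0.0721) and DMBA (-1.29, adjusted p = 0.0502). The call in DMBA+TAM was also lost without DMBA+TAM replicate 1 (-1.31, adjusted p = 0.0753), and that in TAM long without TAM long replicate 1 (-1.18, adjusted p = 0.106) or 2 (-1.45, adjusted p = 0.0626).

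*Jun* (chromosome 4, minus strand, 95049034 to 95052222), the partner of Fos proteins in AP-1 and a target of the kinase JNK, was lowest in control. It had 44.3 and 60.6 normalized CPM in control, 96.2 and 88.3 in DMBA, 85.0 and 86.0 in TAM short, 162 and 152 in TAM long, and 90.6 and 91.9 in DMBA+TAM. All 8 treated libraries were above both controls, TAM long was above all others, and DMBA and DMBA+TAM overlapped. The log2 fold changes against control were 1.58 in TAM long (adjusted p = 2.47e-05), 0.82 in DMBA (adjusted p = 0.00129), 0.80 in DMBA+TAM (adjusted p = 0.00102) and 0.71 in TAM short (adjusted p = 0.0108). The call in TAM short was lost without control replicate 1 (0.50, adjusted p = 0.0783) and without TAM short replicate 1 (0.71, adjusted p = 0.0644) or 2 (0.70, adjusted p = 0.0895). An antisense gene, *Junos*, overlaps *Jun* and had 46 counts over all libraries. The strand setting of the counting is not given in the sources used here.

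*Junb* (chromosome 8, minus strand, 84976909 to 84978748), a Jun protein that is a weaker activator than Jun, passed the test against control in TAM short alone. It had 99.6 and 113 normalized CPM in control, 102 and 91.3 in DMBA, 173 and 145 in TAM short, 109 and 86.5 in TAM long, and 114 and 128 in DMBA+TAM. TAM short was above all other libraries, and control, DMBA and TAM long overlapped. *Junb* rose in TAM short against control (0.58, adjusted p = 0.0293), a call that was lost when any of the 4 libraries was left out (0.45 to 0.71, adjusted p from 0.0752 to 0.201). For DMBA+TAM set against control the value was 0.18 (adjusted p = 0.319). In DMBA and TAM long against control the values were -0.14 (adjusted p = 0.48) and -0.12 (adjusted p = 0.537), which turned to 0.18 and 0.20 with library size only. The longer GENCODE model of *Junb* runs into *Prdx2* on the other strand.

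*Atf3* (chromosome 1, minus strand, 191170296 to 191218039) encodes a stress-induced bZIP factor that pairs with Jun proteins. It had 47.8 and 89.2 normalized CPM in control, 34.1 and 48.1 in DMBA, 52.4 and 58.1 in TAM short, 43.0 and 36.6 in TAM long, and 23.2 and 11.9 in DMBA+TAM. Both DMBA+TAM libraries were below all 8 others, and the controls spanned the values of TAM short. *Atf3* fell in DMBA+TAM when set against control (-1.99, standard error 0.37, adjusted p = 0.000914), on 71 counts in both DMBA+TAM libraries together. In the other treated groups against control the values were -0.74 in DMBA (adjusted p = 0.0696), -0.78 in TAM long (adjusted p = 0.0587) and -0.31 in TAM short (adjusted p = 0.552). With all libraries kept, TAM long passed with DESeq2 (-0.79, adjusted p = 0.0373) and with no filter (-0.80, adjusted p = 3.62e-05). It also passed with only the groups compared (-0.77, adjusted p = 0.0494). DMBA passed with DESeq2 (-0.75, adjusted p = 0.0487) and with no filter (-0.76, adjusted p = 0.000109), but not with only the groups compared. Neither passed with library size only, thinned counts, the replicate block or limma. Without control replicate 1, the higher of the controls was left alone, and *Atf3* passed in TAM long (-1.17, adjusted p = 0.0203) and DMBA (-1.13, adjusted p = 0.0226). It passed in DMBA also without DMBA replicate 2 (-1.01, adjusted p = 0.0413), and without control replicate 2 the value in TAM short was 0.20.

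*Egr2* (chromosome 10, plus strand, 67535475 to 67542188) encodes a zinc finger factor known from myelination, neural crest and lymphoid and myeloid cells. It had 0.56 and 0.36 normalized CPM in control, 0.36 and 1.01 in DMBA, 1.01 and 1.39 in TAM short, 2.41 and 0.59 in TAM long, and 31.1 and 23.3 in DMBA+TAM. The values of DMBA+TAM rest on 59 and 53 counts and those of control on 5 and 3, so the shallower libraries held more reads of *Egr2* than any other. The log2 fold change of DMBA+TAM was 5.82 against control (standard error 0.68, adjusted p = 3.86e-05), 5.33 against DMBA (adjusted p = 6.9e-05), 4.49 against TAM short (adjusted p = 0.000115) and 4.14 against TAM long (adjusted p = 0.000182). Each of these calls was kept under all alternatives run, counts thinned to the smallest library among them, but their size moved. Against TAM long the value was 5.47 without TAM long replicate 1 and 3.47 without replicate 2, and against DMBA it was 4.72 without DMBA replicate 1 and 6.17 without replicate 2. None of the single treatments passed against control: TAM long had 1.68 (adjusted p = 0.0933), TAM short 1.33 (adjusted p = 0.309) and DMBA 0.49 (adjusted p = 0.668). The value in TAM long passed without TAM long replicate 2 (2.33, adjusted p = 0.0221), with library size only (1.99, adjusted p = 0.0475) and with no filter (1.66, adjusted p = 0.0149), but it was 0.32 (adjusted p = 0.788) without TAM long replicate 1 and 0.68 (adjusted p = 0.73) with thinned counts, and that in DMBA was -0.38 without DMBA replicate 2. The immune and fibroblast markers that moved with *Egr2* in DMBA+TAM are those given above, and their part in it was not tested.

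*Egr1* (chromosome 18, plus strand, 34859823 to 34864984), the founding Egr factor and a common readout of ERK activity, was highest in TAM long. It had 12.3 and 10.8 normalized CPM in control, 22.3 and 24.0 in DMBA, 20.1 and 17.3 in TAM short, 83.1 and 59.9 in TAM long, and 50.0 and 41.8 in DMBA+TAM. No neighbouring groups in this order overlapped. *Egr1* rose against control by 2.63 on the log2 scale in TAM long (adjusted p = 5.45e-06), by 1.98 in DMBA+TAM (standard error 0.20, adjusted p = 1.45e-05) and by 1.00 in DMBA (adjusted p = 0.00199). In TAM short it rose by 0.69 (adjusted p = 0.041), a call that was lost when any of the 4 libraries was left out (0.58 to 0.79, adjusted p from 0.119 to 0.228).

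*Egr3* (chromosome 14, plus strand, 70077445 to 70080157), a target of other Egr factors in muscle and lymphocytes, was hardly detected. Control held 0 and 0 counts of it, and there were 2 and 6 in DMBA, 2 and 4 in TAM short, 5 and 1 in TAM long, and 3 and 5 in DMBA+TAM. At the depth of DMBA+TAM these few counts correspond to 1.58 and 2.20 normalized CPM, above all 8 other libraries. Both DMBA+TAM libraries, and none of the others, reached the 1.02 CPM (before TMM) that the filter asks for in 2 libraries, so that *Egr3* entered the test through the group where it was high. Its adjusted p (0.00413 for DMBA+TAM and 0.0478 for DMBA, each against control) is given as a description and not counted as a call. No fold of a treated group against control is given, since control was at 0 throughout. Fitted values of *Egr3* in other comparisons and in the interaction, which includes control, appear only where their direction turned under an alternative.

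*Nr4a1* (chromosome 15, plus strand, 101266846 to 101274792), an orphan nuclear receptor induced by growth factors and calcium, was lowest in control. It had 2.37 and 1.44 normalized CPM in control, 10.9 and 25.2 in DMBA, 6.20 and 5.54 in TAM short, 25.7 and 26.2 in TAM long, and 23.7 and 34.3 in DMBA+TAM. All 8 treated libraries were above control, and DMBA+TAM overlapped both TAM long and DMBA. *Nr4a1* rose against control by 3.92 on the log2 scale in DMBA+TAM (standard error 0.45, adjusted p = 3.66e-05), by 3.75 in TAM long (adjusted p = 9.78e-05) and by 3.21 in DMBA (adjusted p = 0.00025). In TAM short the rise was 1.61 (adjusted p = 0.0466), and the call was lost when any of the 4 libraries was left out (1.30 to 2.02, adjusted p from 0.116 to 0.252). The 2 control libraries hold 33 counts of *Nr4a1* in all.

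*Ier2* (chromosome 8, minus strand, 84661331 to 84662852), a nuclear protein of the class without a DNA-binding domain of the families above, was highest in DMBA. It had 41.7 and 48.6 normalized CPM in control, 70.6 and 68.6 in DMBA, 59.5 and 58.4 in TAM short, 60.4 and 50.6 in TAM long, and 32.7 and 30.8 in DMBA+TAM. Both DMBA+TAM libraries were below all 8 others, and only TAM short and TAM long overlapped. *Ier2* rose in DMBA against control (0.62, adjusted p = 0.00279), whereas TAM short had 0.39 (adjusted p = 0.0724) and TAM long 0.30 (adjusted p = 0.0785, and 0.62 with adjusted p = 0.00555 with library size only). It fell in DMBA+TAM (-0.51, standard error 0.14, adjusted p = 0.0102), a call lost without control replicate 2 (-0.43, adjusted p = 0.0577), without DMBA+TAM replicate 2 (-0.49, adjusted p = 0.0521) and with DESeq2 (-0.45, adjusted p = 0.0547). With library size only the value was near 0 (-0.02, adjusted p = 0.932).

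**Figure D2:**
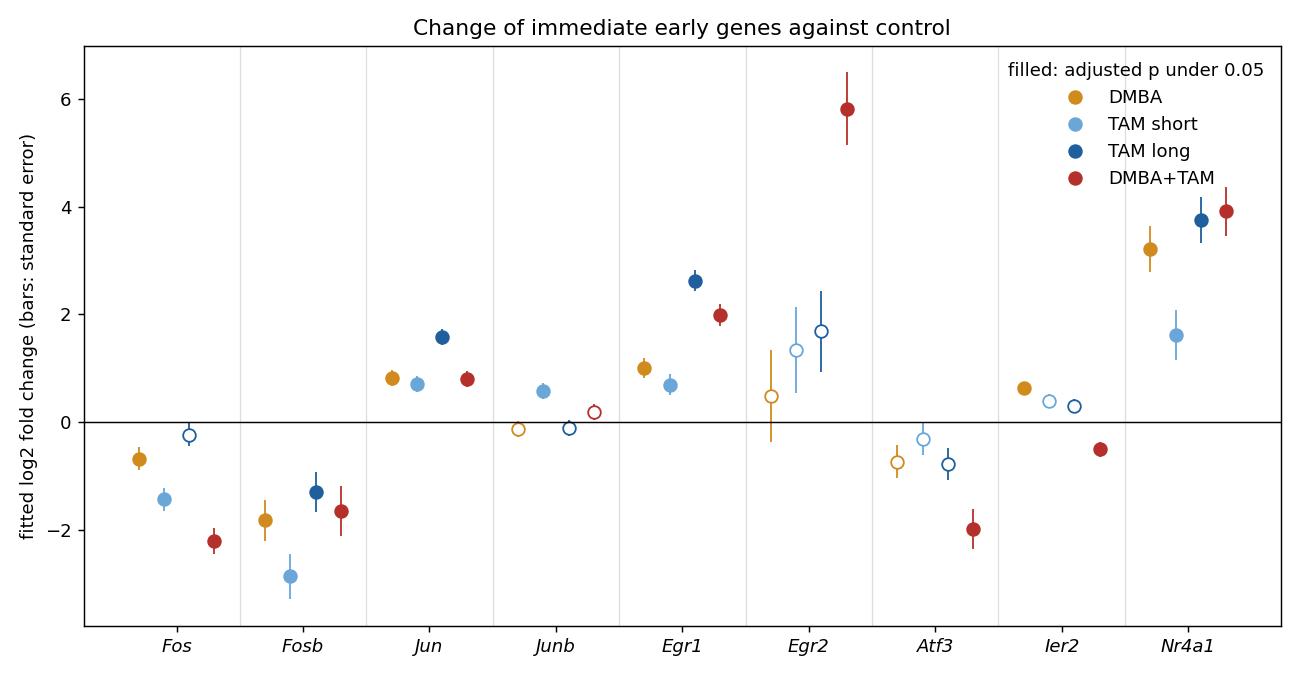
Fitted log2 fold change against control (y axis; bars are standard errors) of 9 immediate early genes in the 4 treated groups, filled where the adjusted p was under 0.05; *Egr3*, at 0 counts in control, is left out. *Nr4a1*, *Egr1* and *Jun* lie above 0 and *Fosb* below 0 in all 4 groups, and *Egr2* passed in DMBA+TAM only, at 5.82.

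The single treatments were set against control to ask what each agent did alone. In DMBA, 4 of 9 members were higher (*Jun*, *Egr1*, *Ier2* and *Nr4a1*) and 2 lower (*Fos* and *Fosb*), where 24.5% and 23.3% of all genes were called. Without control replicate 2, only 4 were called, all of them higher. In TAM long, 3 were higher (*Jun*, *Egr1* and *Nr4a1*) and 1 lower (*Fosb*), against 23.2% and 22.8% of all genes. In TAM short, 4 were higher (*Jun*, *Junb*, *Egr1* and *Nr4a1*) and 2 lower (*Fos* and *Fosb*), where 6.52% and 7.8% of all genes were called. Without control replicate 2, 3 members were called in TAM short, and 2, *Fos* and *Fosb*, without any other library of the comparison. These comparisons share the same control libraries. With library size only, the higher share of calls over all genes moved from 51.2% to 71.1% in DMBA, from 50.5% to 72.0% in TAM long and from 45.5% to 58.6% in TAM short.

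DMBA and TAM long bear another suffix in their names than control, so that these treatments cannot be told apart from what the suffix stands for. The comparison within the L libraries was TAM long against DMBA, and that within the S libraries was TAM short against control. In TAM long against DMBA, 2 of 9 members were higher and 0 lower, where 1.24% and 1.46% of all genes were called. The members were *Egr1* (1.63, standard error 0.18, adjusted p = 0.00293) and *Jun* (0.77, standard error 0.14, adjusted p = 0.0268). *Jun* lost its call without DMBA replicate 2 (0.71, adjusted p = 0.0637) and without TAM long replicate 1 (0.72, adjusted p = 0.19) or 2 (0.81, adjusted p = 0.0979), while *Nr4a1* (0.53, adjusted p = 0.425) gained it without DMBA replicate 2 (1.25, adjusted p = 0.038). With only these 4 libraries in the fit, neither *Egr1* (adjusted p = 0.0641) nor *Jun* (adjusted p = 0.141) passed. The number of all genes called in TAM long against DMBA varied widely between the alternatives, as given under the processing.

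TAM long and TAM short both received tamoxifen, and the difference of their effects, which equals TAM long against TAM short, was tested directly. Of the members, 5 were higher in TAM long and 1 lower, where 22% and 20.3% of all genes were called. *Nr4a1* differed by 2.14 on the log2 scale (adjusted p = 0.00149), *Egr1* by 1.94 (adjusted p = 4.5e-05) and *Fosb* by 1.57 (adjusted p = 0.0157), the last not without TAM short replicate 1 (1.30, adjusted p = 0.121), without TAM long replicate 2 (1.42, adjusted p = 0.0789) or with thinned counts (1.20, adjusted p = 0.13). *Fos* differed by 1.20 (adjusted p = 0.0018) and *Jun* by 0.88 (adjusted p = 0.00101), whereas *Junb* was lower in TAM long (-0.70, adjusted p = 0.00435), but not with limma (-0.47, adjusted p = 0.0524). With library size only, the higher share of calls over all genes moved from 52.0% to 69.9%. The S and L suffixes of the library names separate these groups too, and the label cannot be told apart from the suffix.

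DMBA+TAM was also compared with each other treated group. It differs from them in library depth, in cell type markers and in having no S or L suffix, as given above. These differences cannot be told apart from the combined treatment in the comparisons that follow. Against DMBA, 2 of 9 members were higher (*Egr1* and *Egr2*) and 3 lower (*Fos*, *Atf3* and *Ier2*), where 25.2% and 29.9% of all genes were called. With library size only, *Junb* (0.50, adjusted p = 0.0341) and *Nr4a1* (0.92, adjusted p = 0.0407) passed as higher too. Against TAM long, 1 was higher (*Egr2*) and 5 lower (*Fos*, *Jun*, *Egr1*, *Atf3* and *Ier2*), against 25.3% and 29.9% of all genes. Only 4 were called without DMBA+TAM replicate 2. Scaling by library size only let *Junb* pass as higher against TAM long (0.48, adjusted p = 0.0413), and *Egr1* no longer passed there (-0.47, adjusted p = 0.065). Against TAM short, 3 were higher (*Egr1*, *Egr2* and *Nr4a1*) and 4 lower (*Fos*, *Junb*, *Atf3* and *Ier2*), against 29.3% and 33.8% of all genes. With library size only, *Jun* (0.50, adjusted p = 0.0228) and *Fosb* (1.62, adjusted p = 0.018) passed as higher, and *Fos* and *Junb* no longer passed. The higher share of calls over all genes moved from 46.4% to 61.4% under that scaling. These comparisons share the DMBA+TAM libraries.

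*Fos* was lower in DMBA+TAM than in TAM long (log2 fold change -1.98, adjusted p = 6.26e-05) and than in DMBA (-1.53, adjusted p = 0.000376). Against TAM short it was lower as well (-0.78, adjusted p = 0.0152), a call lost without DMBA+TAM replicate 2 (-0.51, adjusted p = 0.123), without TAM short replicate 2 (-0.74, adjusted p = 0.0616) and with library size only (-0.38, adjusted p = 0.18). *Ier2* was lower against DMBA (-1.13, adjusted p = 8.95e-05), TAM short (-0.90, adjusted p = 0.000348) and TAM long (-0.81, adjusted p = 0.000836). *Atf3* was lower than in TAM short (-1.68, adjusted p = 0.00277), in TAM long (-1.21, adjusted p = 0.0193) and in DMBA (-1.25, adjusted p = 0.0165). Without DMBA+TAM replicate 2, the lower of the pair, *Atf3* did not pass against DMBA (-0.83, adjusted p = 0.148) or TAM long (-0.78, adjusted p = 0.17). It did not pass without DMBA replicate 2 (-1.01, adjusted p = 0.0626) or TAM long replicate 1 (-1.10, adjusted p = 0.0737) in those comparisons either.

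*Egr1* in DMBA+TAM was above TAM short (1.29, adjusted p = 0.000249) and DMBA (0.99, adjusted p = 0.00167) and below TAM long (-0.64, adjusted p = 0.0142). The last call was lost without TAM long replicate 1 (-0.41, adjusted p = 0.112), without DMBA+TAM replicate 2 (-0.52, adjusted p = 0.106) and with library size only (-0.47, adjusted p = 0.065). *Nr4a1* was higher than in TAM short (2.31, adjusted p = 0.000626). Against TAM long it had 0.17 (adjusted p = 0.713), and -0.13 without DMBA+TAM replicate 2. Against DMBA, whose libraries differ widely, it had 0.70 (adjusted p = 0.131), which passed without DMBA replicate 2 (1.40, adjusted p = 0.00207).

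*Jun* was lower than in TAM long (-0.78, adjusted p = 0.00133), with -0.02 against DMBA (adjusted p = 0.937, and 0.16 with library size only) and 0.09 against TAM short (adjusted p = 0.605). *Junb* was lower than in TAM short (-0.40, adjusted p = 0.0439), but the difference was 0.00 with library size only and the call was lost with the replicate block (-0.39, adjusted p = 0.0509). The call was also lost without DMBA+TAM replicate 1 (-0.34, adjusted p = 0.169) or 2 (-0.51, adjusted p = 0.0585) and without TAM short replicate 1 (-0.30, adjusted p = 0.211). DESeq2 (-0.33, adjusted p = 0.117) and thinned counts (-0.21, adjusted p = 0.289) lost this call of *Junb* as well. Against DMBA *Junb* had 0.32 (adjusted p = 0.103) and against TAM long 0.31 (adjusted p = 0.119). *Fosb* had 0.18 against DMBA (adjusted p = 0.784) and -0.35 against TAM long (adjusted p = 0.563). Against TAM short it had 1.22 (adjusted p = 0.0715), and this value passed under 6 of the 7 alternatives that keep all libraries of both groups, not with thinned counts (0.89, adjusted p = 0.201) or with any library left out.

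**Figure D3:**
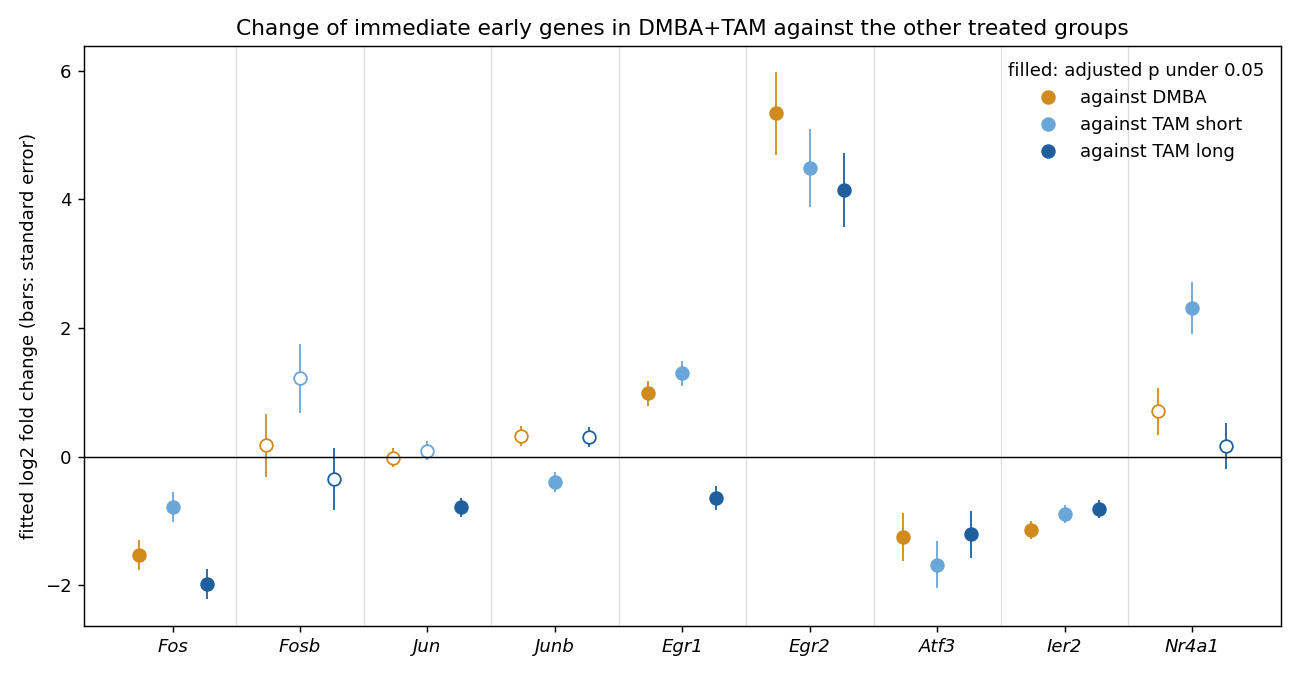
Fitted log2 fold change of DMBA+TAM against DMBA, TAM short and TAM long (y axis; bars are standard errors) for 9 immediate early genes, filled where the adjusted p was under 0.05; *Egr3* is left out for its low counts. *Egr2* lies at 4.14 to 5.33 and *Fos*, *Atf3* and *Ier2* lie below 0 against all 3 groups, while *Egr1* changes sign with the group it is set against.

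The interaction of DMBA and TAM long asks whether DMBA+TAM differed from the sum of both single effects on the log2 scale. Of 9 members, 5 passed the test as negative and 1 as positive, where 26.5% of all genes passed as negative and 21.6% as positive. *Nr4a1* had -3.04 (standard error 0.56, adjusted p = 0.00153), *Egr1* -1.64 (adjusted p = 0.000651) and *Jun* -1.60 (adjusted p = 0.000152). These 3 genes were higher than control in both single treatments and in the combined treatment, and their level in DMBA+TAM was below the sum. *Ier2* had -1.43 (adjusted p = 0.00018) and *Fos* -1.30 (adjusted p = 0.00717). *Egr2* had 3.65 (standard error 1.10, adjusted p = 0.0201), a call lost without control replicate 1 (3.28, adjusted p = 0.137) or 2 (3.91, adjusted p = 0.0502) and with thinned counts (4.70, adjusted p = 0.0854). *Fosb* (1.48, adjusted p = 0.0766), *Junb* (0.44, adjusted p = 0.117) and *Atf3* (-0.47, adjusted p = 0.451) did not pass. *Fosb* passed without control replicate 1 (1.86, adjusted p = 0.0364) or DMBA replicate 2 (1.94, adjusted p = 0.0304), with the replicate block (1.38, adjusted p = 0.0141), with no filter (1.45, adjusted p = 0.00247) and with DESeq2 (1.55, adjusted p = 0.0485). DMBA and TAM long both have the L suffix, control has the S and DMBA+TAM has none, so that a difference between S and L enters the sum of both effects for each of them and cannot be told apart from the interaction. The epithelial, fibroblast and small intestine markers and the library depth of DMBA+TAM differ from the single treatments, as given above. Smooth muscle markers summed to 1565 and 1671 normalized CPM in DMBA+TAM and colon markers to 33.0 and 45.8, below DMBA and TAM long. The part of these differences in the interaction was not tested.

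Within each protein family the members were compared per length, as the authors' FPKM, reads scaled by gene length and library total. The length behind the FPKM was the same in every library, but for *Fos*, *Fosl2*, *Egr1*, *Egr2*, *Nr4a2* and *Nr4a3* it was shorter than the length listed in the table (1565 against 2965 bases for *Egr2*, 3760 against 4484 for *Egr1*, 1092 against 2108 for *Fos*). Shares were therefore also computed with the listed length, chosen after seeing the data. *Egr1* made up 78.7% to 97.3% of the FPKM of the Egr family in the 8 libraries outside DMBA+TAM, and *Egr2* 2.3% to 15.2%. In DMBA+TAM *Egr2* made up 57.9% and 54.0% and *Egr1* 38.8% and 40.3%. With the listed length *Egr2* made up 46.1% and 42.0% there, below the 49.0% and 49.7% of *Egr1*. In control it made up 6.49% and 4.8% with that length. The order of both genes in DMBA+TAM thus depends on the length used, but the larger share of *Egr2* there than elsewhere does not. The family as a whole summed to 3.13 and 2.59 FPKM in control and to 40.9 and 32.7 in DMBA+TAM, while *Egr4* had no count in any library.

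In the Jun family, *Jund*, which is expressed in most resting cells, made up 36.5% to 51.2% of the FPKM outside DMBA+TAM and 19.8% and 19.5% in it. *Junb* there had 73.7 and 82.3 FPKM, *Jun* 33.9 and 34.2, and *Jund* 26.6 and 28.3. In the Fos family, *Fosl2* made up 51.1% and 48.8% in TAM short, more than in any other group, as it did with the listed length (54.3% and 52.0%). *Nr4a1* made up 33.3% to 75.2% of the Nr4a family (44.5% to 83.2% with the listed length), whose sum rose from 1.89 and 1.46 FPKM in control to 21.4 and 21.9 in DMBA+TAM. The family sums were described only, with no test.

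**Figure D4:**
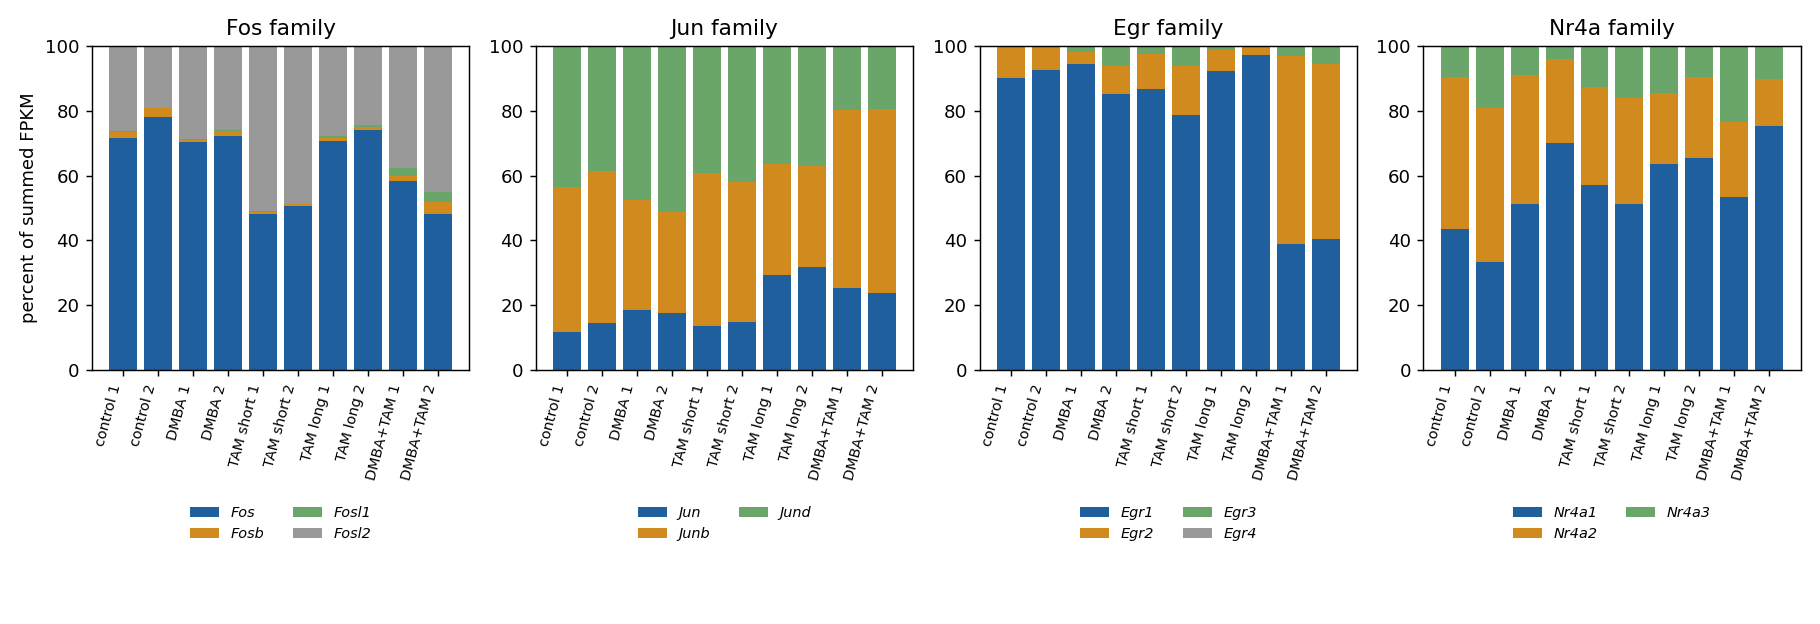
Share of each gene in the FPKM summed over its family (y axis, percent, from 0), with a stacked bar for each of the 10 libraries and a panel for each family. *Egr2* takes 57.9% and 54.0% of the Egr family in DMBA+TAM and at most 15.2% elsewhere (46.1% and 42.0% in DMBA+TAM with the listed gene length), and *Jund* is smallest in DMBA+TAM, at 19.8% and 19.5%.

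Other genes of the same response were described by lists from general knowledge. Of 34 other immediate early genes, 33 were tested, and in DMBA+TAM against control 15 were higher and 7 lower, with a median log2 fold change of 0.69, where 29% and 35.3% of all genes were called and their median was -0.17. *Klf4*, a factor of differentiated epithelium, fell from a control level of 292 ± 43.6 normalized CPM (SD, n = 2) to 106 ± 15.9 in DMBA+TAM (-1.46, adjusted p = 4.57e-05), and rose to 711 ± 84.0 in DMBA (1.28, adjusted p = 0.000223). *Klf6*, a widely expressed zinc finger factor, fell from 353 ± 35.1 to 149 ± 5.01 in DMBA+TAM (-1.24, adjusted p = 9.66e-06), and *Btg1*, an antiproliferative gene, had 165 ± 10.7 and 177 ± 31.0 (adjusted p = 0.612). In the single treatments, again against control, 14 were higher and 5 lower in DMBA (24.5% and 23.3% of all genes), 17 and 3 in TAM long (23.2% and 22.8%), and 6 and 2 in TAM short (6.52% and 7.8%).

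Of 9 genes for the factors upstream, serum response factor, its partners and the CREB group, 3 were higher and 0 lower in DMBA+TAM against control, beside 29% and 35.3% of all genes. *Srf* itself had 59.9 ± 0.78 normalized CPM in control against 71.7 ± 6.79 in DMBA+TAM (0.26, adjusted p = 0.142), and 90.5 ± 16.8 in DMBA (0.60, adjusted p = 0.00569). *Creb1* had 74.2 ± 3.06 and 74.3 ± 0.66 in control and DMBA+TAM (0.0033, adjusted p = 0.988), and *Elk4* 52.4 ± 3.00 and 57.3 ± 7.64 (0.12, adjusted p = 0.427). None of these named genes is among the 3 that were higher in DMBA+TAM. The whole list summed to 301 and 304 normalized CPM in control and to 448 and 460 in DMBA+TAM, with no test of the sum.

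Among 11 genes of ERK feedback, 6 were higher and 3 lower in DMBA+TAM against control, with a median of 1.23, beside 29% and 35.3% of all genes. *Spred1*, an inhibitor of Ras signalling, rose from 28.2 ± 5.82 to 159 ± 8.40 normalized CPM (2.49, adjusted p = 3.62e-07). *Dusp6*, the ERK phosphatase that ERK induces, fell from 116 ± 14.8 to 80.9 ± 2.52 (-0.52, adjusted p = 0.0145), and *Spred2* from 45.1 ± 0.45 to 32.4 ± 2.65 (-0.47, adjusted p = 0.0198). Thus genes of this list moved in opposite directions. Of the Egr corepressors, *Nab1* rose (0.44, adjusted p = 0.00958) and *Nab2*, which Egr factors induce, had 13.0 ± 0.66 in control and 13.9 ± 0.26 in DMBA+TAM (0.10, adjusted p = 0.82). *Nab2* was lower than control in DMBA (-2.00, adjusted p = 0.000905), TAM short (-1.54, adjusted p = 0.0127) and TAM long (-1.84, adjusted p = 0.00136).

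Of 11 bZIP genes outside the Fos and Jun families, 3 were higher and 5 lower in DMBA+TAM against control, shares near the 29% and 35.3% of all genes. *Maf*, a large Maf factor, had 464 ± 16.4 normalized CPM in control and 389 ± 16.4 in TAM short, against 30.1 ± 2.65 in DMBA and 33.1 ± 7.84 in TAM long, with 230 ± 6.89 in DMBA+TAM. Control and TAM short thus stood apart from DMBA and TAM long, as the S and L suffixes do. *Atf4*, the factor of the integrated stress response that acts upstream of *Atf3*, fell from 273 ± 11.9 in control to 110 ± 13.4 in DMBA+TAM (-1.31, adjusted p = 3.05e-05) and to 134 ± 12.6 in DMBA (-1.03, adjusted p = 0.000308).

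Heat shock genes, some of which often rise with immediate early genes when tissue is handled, were measured as a separate list. The genes named were taken for their high mean level, and handling was not tested. Of 10, 8 were lower and 1 higher in DMBA+TAM against control, where 35.3% of all genes were lower and 29% higher. *Hspa8*, a constitutive chaperone, fell from 1344 ± 25.4 to 499 ± 3.93 normalized CPM (-1.43, adjusted p = 3.29e-06), and *Hspd1* (-2.44, adjusted p = 1.65e-07) and *Dnaja1* (-1.61, adjusted p = 4.59e-06) fell as well. In DMBA against control 5 were lower and 3 higher (23.3% and 24.5% of all genes), and in TAM long 5 and 2 (22.8% and 23.2%). In TAM short 6 were lower and 0 higher, where 7.8% and 6.52% of all genes were called.

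The genes whose levels were most like those of each member were sought among 11044 genes, by Pearson r of log2(normalized CPM + 1) over the 10 libraries. These libraries share groups and depth, so r is a description only. *Ostm1* (r = 0.989), *Chst11* (0.987) and *Fcgr3* (0.986) were most like *Egr2*. *Acat1* (0.962) was most like *Fos*, *Arrdc2* (0.964) most like *Jun*, *Tfam* (0.961) most like *Atf3* and *Lypla2* (0.976) most like *Ier2*. *Rnf130* (0.971) and *Cd63* (0.970) were most like *Nr4a1*, *Tgtp2* (0.941) was most like *Junb*, and *Rwdd1* (0.915) most like *Fosb*. *Egr3* is left out here, since it had few counts and passed the filter only through DMBA+TAM. For *Egr1* it was *2610044O15Rik8* (0.967).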

How the data were processed

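RNA was poly-T selected and libraries were made with the NEBNext Ultra RNA kit. The authors mapped reads with TopHat to GRCm38 and counted them per gene with HTSeq, and the deposited counts of 10 libraries were used as they stand. The deposited FPKM were computed by the authors from counts and a gene length that for some genes is shorter than the one listed. The authors' comparison columns, which hold their fold changes and adjusted p-values, were not used.

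The test was the quasi-likelihood test of edgeR 4.0.16 (R 4.3.3) after filterByExpr by group and TMM scaling, with a fit of a mean per group over all 10 libraries; p-values were adjusted by Benjamini-Hochberg over 16179 genes, with a threshold of 0.05. With 2 libraries a group, an exact test of a single value cannot go below p = 0.333. Alternatives were library size only, DESeq2 1.42.0, no filter, the compared groups alone, a block by replicate number, counts thinned to 1592366 in each library, limma 3.58.1 on log2(FPKM + 1), and leaving out each library. Their use for the difference of the tamoxifen effects and for the interaction was chosen after seeing the data. The steps were tested on simulated data. The members and lists were chosen with earlier results of these data known. All members were named, and from each list of genes of the response the 3 with the highest mean level, apart from a gene that is not reported here. Likeness was computed over genes averaging 50 counts or more per library. Replicates differed by more than sampling noise (chi-square per degree of freedom from 5.57 to 67.1), so no library was counted as deposited more than once. Python 3.11.15 with pandas 2.3.3 made the tables, and matplotlib 3.10.9 the figures.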

Additional observations from a re-analysis of the deposited data

Results flagged for a closer look

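Effects of a treatment that differed between settings, by a direct test of the difference with edgeR, are collected here as log2 values. The effect of tamoxifen against control was more positive in TAM long than in TAM short for *Nr4a1* (2.14), *Egr1* (1.94) and *Jun* (0.88), which were higher than control in both. For *Fosb* (1.57) and *Fos* (1.20) the fall in TAM short was larger than the value in TAM long, and for *Junb* (-0.70) the rise was in TAM short. These groups also differ in the S or L suffix of the library names. The effect of DMBA differed with and without tamoxifen, as the interaction of DMBA and TAM long, for *Egr2* (3.65, a call lost without either control library), *Fos* (-1.30), *Ier2* (-1.43), *Jun* (-1.60), *Egr1* (-1.64) and *Nr4a1* (-3.04). DMBA and TAM long share the L suffix of their library names, which neither control nor DMBA+TAM has, and its part cannot be told apart from this interaction.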

How the results depend on the processing

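Of 1022 values of the 9 members without *Egr3* under the alternatives, 877 kept their direction and their side of the threshold, 69 lost a call, 42 gained one and 34 turned their direction. The lost and gained calls named in the text are only a part of these. The 2 libraries a group and the 1592366 and 1915270 counts of DMBA+TAM limit the precision. Both DMBA+TAM libraries together held 8 counts of *Egr3*, 30 of *Fosb*, 71 of *Atf3* and 112 of *Egr2*, and both control libraries held 8 of *Egr2*. Scaling by library size only moved the median of all genes by 0.48, 0.18, 0.16 and 0.39 in DMBA+TAM against control, DMBA, TAM long and TAM short, by 0.30 and 0.32 in DMBA and TAM long against control, by 0.23 in TAM long against TAM short, by -0.13 in the interaction, and by under 0.1 in both other comparisons. Where a cause of a change is not named, the cause was not tested.

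Turned directions were as follows, with those of *Egr3* given as a description only. With library size only these were *Fos* (0.086) and *Junb* (0.20) in TAM long against control, *Jun* (0.16) in DMBA+TAM against DMBA, *Junb* (0.0024) in DMBA+TAM against TAM short, and *Junb* (0.18) in DMBA against control. With limma the same comparisons gave *Fos* 0.095, *Junb* 0.19, *Jun* 0.17, *Junb* 0.0051 and *Junb* 0.16. With thinned counts, where fewer reads are left, these were *Fosb* (-0.43) and *Jun* (0.098) in DMBA+TAM against DMBA, *Fosb* (-0.12) in TAM long against DMBA, and *Egr2* in DMBA (-0.22) and TAM short (-0.066) against control. With DESeq2 *Jun* in DMBA+TAM against DMBA had 0.056. In TAM long against TAM short *Ier2* had 0.14 with library size only and 0.13 with limma, and in the interaction *Egr3* had 0.74 with limma (adjusted p = 0.042). Leaving out a library gave ranges across 0 in TAM long against control for *Fos* (-0.47 to 0.035) and *Junb* (-0.30 to 0.029), in DMBA against control for *Egr2* (-0.38 to 1.07), and in TAM short against control for *Atf3* (-0.69 to 0.20). The same held in DMBA+TAM against DMBA for *Fosb* (-0.41 to 0.63) and *Jun* (-0.097 to 0.044), and in DMBA+TAM against TAM long for *Fosb* (-0.94 to 0.024) and *Nr4a1* (-0.13 to 0.40). In TAM long against DMBA it held for *Junb* (-0.16 to 0.17), *Egr2* (-0.16 to 2.06), *Egr3* (-1.89 to 0.57) and *Atf3* (-0.27 to 0.22). In TAM long against TAM short it held for *Egr2* (-1.01 to 0.99), *Egr3* (-1.72 to 0.24) and *Ier2* (-0.23 to 0.020). Apart from the limma value of *Egr3* in the interaction, which is not counted as a call, none of these turned values passed the test. *Junb* in DMBA+TAM against TAM short had passed before (-0.40, adjusted p = 0.0439).

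Counts of members leave out *Egr3*. In TAM long against DMBA, 0 members were called with only the groups compared, where 8 members were tested. Leaving out a library gave 4 to 6 members called in DMBA+TAM against TAM long, 4 to 7 in DMBA against control, 2 to 3 in TAM short against control and 1 to 2 in TAM long against DMBA. Of all genes, thinned counts called 4845 in DMBA, 1277 in TAM short and 4628 in TAM long against control, and 216 in TAM long against DMBA. A fit of only the groups compared called 4317 in TAM short against control and 29 in TAM long against DMBA, where no filter called 1615, DESeq2 871 and limma 290. Leaving out a library called from 669 to 1057 genes in TAM short against control, from 4946 to 5572 in TAM long against control, from 4258 to 5018 in TAM long against TAM short (4025 with thinned counts) and from 58 to 1036 in TAM long against DMBA.

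Correlations of the deviations of same-numbered libraries ran from -0.04 to 0.26, the highest between DMBA and TAM long. They cannot settle whether the replicate numbers pair the samples. With the number as a block, *Junb* in DMBA+TAM against TAM short had -0.39 and adjusted p = 0.0509, *Fosb* gained a call there (1.17, adjusted p = 0.0117) and in the interaction (1.38, adjusted p = 0.0141), and *Egr3*, whose values are not counted as calls, had an adjusted p above the threshold in DMBA+TAM against TAM long (adjusted p = 0.052) and in DMBA against control (adjusted p = 0.0605). The block changed no other call of a member.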
